A study of Mus musculus with 10 samples.

Results

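The BMP, activin and TGF-beta pathway was described here through 52 genes, chosen by symbol from the platform's annotation: 14 ligands and ligand subunits, 10 receptors, 15 antagonists and binding proteins, 8 SMADs and 5 target genes. All 52 were measured, each by 1 probe set, among 19505 named genes and 22206 probe sets in all. The tissue was the Wolffian duct, the embryonic precursor of the epididymis and vas deferens, dissected from mice at 16.5 days post-coitum and cultured for 72 h at an air-liquid interface. The cultures received 0.5 µM SAG, which activates the hedgehog transducer Smoothened (4 arrays), 25 µM cyclopamine, which inhibits it (3 arrays), or culture medium, called vehicle in the sample titles (3 arrays). No strain or genotype is given in the labels used here, the titles name the tissue pronephros, and the series calls the samples biological replicates.

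Ligands of this superfamily are secreted dimers that bring together type I and type II receptor kinases on the cell surface. The receptors phosphorylate SMAD proteins: Smad1, Smad5 and Smad9 mainly after BMP, Smad2 and Smad3 mainly after activin and TGF-beta. These bind Smad4 and enter the nucleus, while Smad6 and Smad7 inhibit the relay. Outside the cell, noggin, chordin-type proteins and follistatins bind and block ligands, and latent TGF-beta binding proteins hold TGF-beta in the matrix. In the mouse, activin A from the mesenchyme is needed for coiling of the epididymal duct, and BMP genes are needed for the epididymis to form and persist.

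Values are log2 signals, so a difference of 1 is a doubling, and levels of different genes are not compared because each probe set has its own response. Gli1, a direct target of hedgehog signalling, checks the treatments: it had 13.41, 13.41, 13.61 and 13.24 with SAG, 4.56, 5.37 and 4.99 with cyclopamine, and 12.63, 11.67 and 11.43 with vehicle, with no overlap between the groups. It rose with SAG against vehicle (1.51 ± 0.27, limma adjusted p = 0.0374) and fell with cyclopamine (limma adjusted p = 1.57e-06), where its mean of 4.98 lay under 5.19, the lower quartile of the means over all probe sets. The data used here carry no detection calls, so no size is given for that fall. Ptch1 and Hhip, hedgehog targets that stayed above that quartile, rose with SAG (1.56 ± 0.22 and 4.55 ± 0.33, limma adjusted p = 0.0120 and 0.000275) and fell with cyclopamine (-4.12 ± 0.24 and -5.95 ± 0.35, limma adjusted p = 9.85e-06 and 1.15e-05). Array medians lay between 7.55 and 7.70. Cyclopamine replicate 2 stood apart on the second principal component over all probe sets (-51.7, against 13.0 and 13.6 for the other cyclopamine arrays). It also stood apart for Grem1, Inhba, Bmp6, Bmpr1b and Tgfbr3, and SAG replicate 1 did for Chrdl1, Gdf10, Bmp3 and Grem1. Member calls that changed without either of these arrays are given with and without it. Other values are for all arrays unless stated.

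With cyclopamine, genes of several secreted ligands and ligand-binding proteins fell. Of the 52 genes, 10 fell against vehicle, 0 rose and 42 did not pass the test (limma, adjusted over all probe sets, threshold 0.05), where 2.95% of all probe sets fell, 2.17% rose and 5.12% passed in either direction. All cyclopamine arrays lay below all vehicle arrays for 21 of the 52 genes and above them for 5, against 11.9% and 11.2% of all probe sets. The 10 were the ligand genes Inhba, Bmp4, Tgfb3 and Bmp2, the ligand-binding protein genes Chrdl1, Fst, Fstl3, Ltbp3 and Ltbp4, and the target gene Ccn2. None of the 10 receptor genes and none of the 8 SMAD genes passed by limma against vehicle with either compound; at an unadjusted p below 0.05 there were 1 receptor and 3 SMADs with cyclopamine, where 18.9% of all probe sets were, and 1 receptor and 1 SMAD with SAG, where 10.8% were. The median log2 difference from vehicle with cyclopamine was -0.71 over the antagonists and binding proteins, -0.30 over the ligands, 0.04 over the receptors, -0.14 over the SMADs and -0.95 over the targets, against 0.02 over all probe sets. Without cyclopamine replicate 2 the median of the receptors was -0.13, and without vehicle replicate 1 that of the ligands was -0.05.

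With SAG, 2 of the 52 genes rose against vehicle (Sostdc1 and Tgfb3), 0 fell and 50 did not pass, where 0.450% of all probe sets rose, 0.279% fell and 0.730% passed in either direction. Each SAG array exceeded each vehicle array for 10 of the 52 genes and was below each for 7, against 6.25% and 6.63% of all probe sets. An unadjusted p below 0.05 was found for 16 of the 52 genes and for 10.8% of all probe sets. Without SAG replicate 1, 4 genes rose, with Chrdl1 (1.87, limma adjusted p = 0.00243) and Bmp5 (1.32, limma adjusted p = 0.0465) added. Leaving out cyclopamine replicate 2, which enters this comparison through the shared estimate of spread alone, brought the count to 3, with Inhba added (limma adjusted p = 0.0369). Without both of these arrays 5 genes rose. Tgfb3 did not pass without vehicle replicate 2 (limma adjusted p = 0.0769) or 3 (0.0549), which left 1 gene.

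Between the compounds, 17 of the 52 genes were higher with SAG than with cyclopamine and 5 were lower, where 5.42% of all probe sets were higher, 5.92% lower and 11.3% passed in either direction. All SAG arrays lay above all cyclopamine arrays for 21 of the 52 genes and below them for 7, against 10.7% and 10.5% of all probe sets. The 17 were 5 ligands, 1 receptor, 9 antagonists and binding proteins, 1 SMAD and 1 target. The 5 genes lower with SAG were Bmp7, Bmpr1b, Acvr1b, Nog and Twsg1. These comparisons share arrays with those against vehicle and are given beside them, not as separate support. Each tissue was an explant of several cell types, in which fewer cells of a type and less RNA per cell cannot be told apart.

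**Figure D1:**
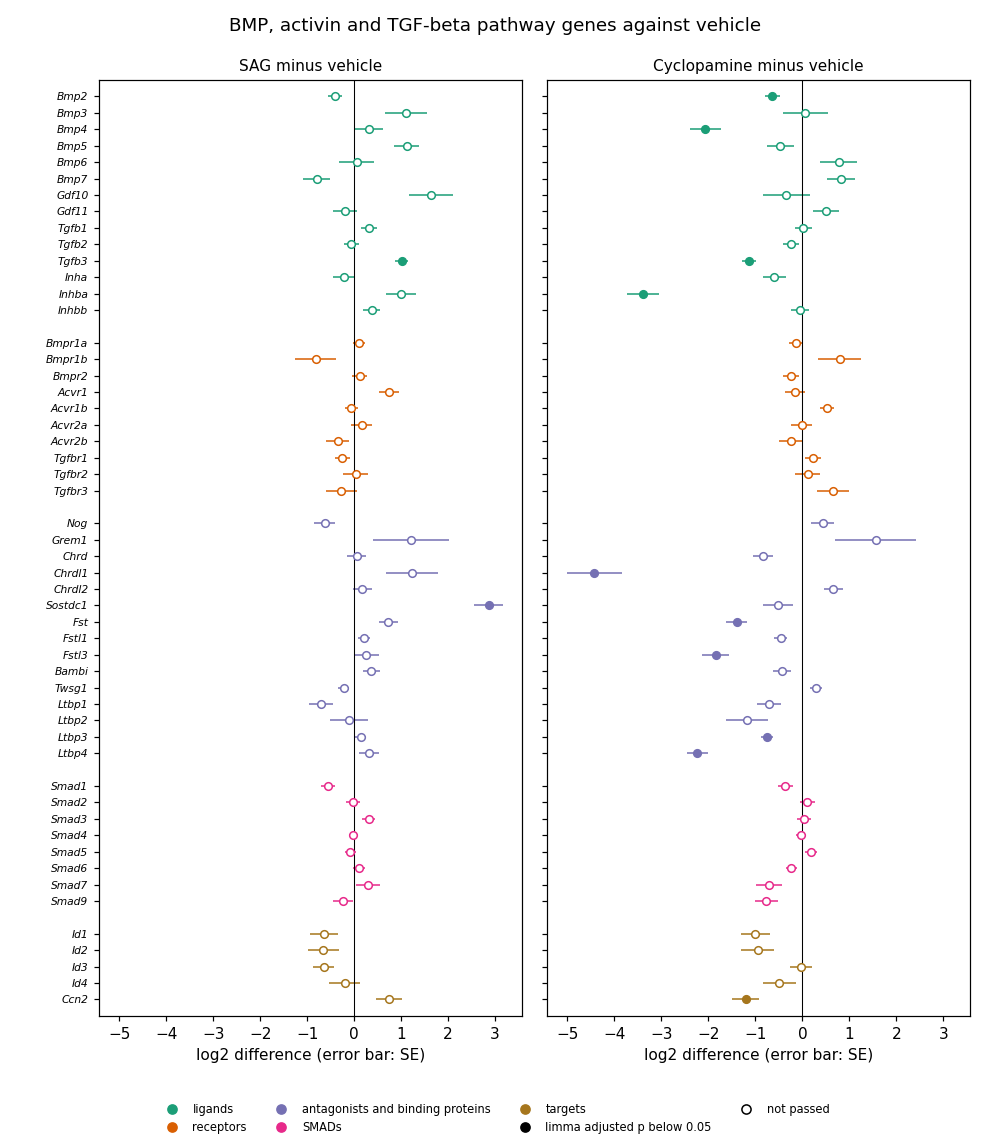
Log2 difference from vehicle (horizontal axis, error bars are moderated standard errors) for the 52 pathway genes with SAG (left) and cyclopamine (right), coloured by class; filled points passed the test. With cyclopamine the 10 filled points all lie left of 0, down to -4.43 for Chrdl1, and no receptor or SMAD is filled; with SAG the filled points are Sostdc1 (2.86) and Tgfb3 (1.01).

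Among the ligands, Inhba, which encodes the beta-A subunit shared by activin A and inhibin A, fell most with cyclopamine. Its log2 signal was 13.90, 14.36, 14.76 and 14.51 with SAG, 10.37, 9.09 and 10.53 with cyclopamine, and 13.33, 13.28 and 13.58 with vehicle. The 3 groups did not overlap, and cyclopamine replicate 2 was the lowest array. With cyclopamine Inhba fell 10.6-fold against vehicle (-3.40 ± 0.34 SE, limma adjusted p = 0.000522, and -3.67 to -2.94 with single arrays left out). The SAG difference from vehicle, 0.99 ± 0.32, did not pass (limma adjusted p = 0.256). SAG was 20.9-fold above cyclopamine (limma adjusted p = 1.87e-05, and a log2 difference of 3.93 to 4.65 with single arrays left out). The other inhibin and activin subunit genes did not pass in any comparison: Inha, the inhibin alpha subunit, was at -0.22 ± 0.23 with SAG and -0.60 ± 0.24 with cyclopamine against vehicle, and Inhbb, the beta-B subunit, at 0.37 ± 0.18 and -0.05 ± 0.19.

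Bmp4, a BMP of the urogenital mesenchyme, had 13.63, 13.95, 14.64 and 13.81 with SAG, 11.71, 10.99 and 12.17 with cyclopamine, and 13.74, 14.06 and 13.29 with vehicle. The cyclopamine arrays lay below all others, while the SAG and vehicle arrays overlapped. Bmp4 fell 4.21-fold with cyclopamine (-2.07 ± 0.33, limma adjusted p = 0.00669), and with SAG it was at 0.31 ± 0.31 against vehicle (limma adjusted p = 0.785). Bmp2, closely related to Bmp4, had 6.33, 6.50, 6.40 and 6.42 with SAG, 6.35, 5.94 and 6.23 with cyclopamine, and 7.09, 6.59 and 6.77 with vehicle, so both compounds lay below vehicle on every array. It fell with cyclopamine (-0.64 ± 0.16, limma adjusted p = 0.0464), and this call ended when any 1 of the 10 arrays was left out (limma adjusted p 0.0521 to 0.155). With SAG the difference of Bmp2 from vehicle was -0.40 ± 0.15 (limma adjusted p = 0.345).

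Tgfb3, one of the TGF-beta ligand genes, was the single member that passed in each of the 3 comparisons. It had 13.19, 13.10, 12.97 and 13.05 with SAG, 11.16, 10.83 and 10.83 with cyclopamine, and 12.32, 11.91 and 11.96 with vehicle. The groups did not overlap, and the steps on either side of vehicle were of similar size. Tgfb3 rose 2.02-fold with SAG (1.01 ± 0.14, limma adjusted p = 0.0120, with the exceptions given above) and fell 2.18-fold with cyclopamine (-1.13 ± 0.15, limma adjusted p = 0.00321). Its paralogs did not pass in any comparison. Tgfb1 was at 0.32 ± 0.17 with SAG and 0.02 ± 0.18 with cyclopamine against vehicle, and Tgfb2 at -0.06 ± 0.16 and -0.24 ± 0.17.

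Of the remaining BMP and GDF genes, Bmp5, Gdf10 and Bmp7 passed for SAG against cyclopamine and not against vehicle. Bmp5 had 10.66, 11.37, 11.71 and 11.23 with SAG, 10.05, 9.21 and 9.69 with cyclopamine, and 9.77, 10.35 and 10.24 with vehicle. The SAG arrays lay above all others, by 1.59 ± 0.27 over cyclopamine (limma adjusted p = 0.00295) and 1.12 ± 0.27 over vehicle (limma adjusted p = 0.103). Gdf10, also called Bmp3b, had 13.80, 14.87, 15.30 and 15.09 with SAG, 12.74, 13.45 and 12.16 with cyclopamine, and 14.21, 12.60 and 12.62 with vehicle. SAG replicate 1 was the low array of its group and vehicle replicate 1 the high one of its own. Gdf10 was 3.94-fold higher with SAG than with cyclopamine (limma adjusted p = 0.0199), a call that ended without SAG replicate 2, 3 or 4 or cyclopamine replicate 1 or 3 (limma adjusted p 0.0510 to 0.0852), and it was at 1.63 ± 0.47 with SAG against vehicle (limma adjusted p = 0.190, and 1.95 with 0.106 without SAG replicate 1).

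Bmp7, which in the mouse is made by the duct epithelium among other tissues, ran the other way, with 8.52, 9.26, 9.52 and 8.73 with SAG, 10.86, 10.03 and 11.00 with cyclopamine, and 9.88, 9.97 and 9.59 with vehicle. The 3 groups did not overlap. Bmp7 was 3.08-fold lower with SAG than with cyclopamine (-1.62 ± 0.28, limma adjusted p = 0.00384), while SAG (-0.80 ± 0.28) and cyclopamine (0.82 ± 0.30) did not pass against vehicle (limma adjusted p = 0.307 and 0.167). Without cyclopamine replicate 2 Bmp7 rose with cyclopamine by 1.12 (limma adjusted p = 0.0405), as did Bmp6, another BMP ligand gene, by 1.29 (limma adjusted p = 0.0210). Bmp6 had 9.86, 8.00 and 9.26 with cyclopamine and 8.36, 7.84 and 8.60 with vehicle, and with all arrays the difference did not pass (0.77 ± 0.40, limma adjusted p = 0.329). With SAG the Bmp6 signal was 8.52, 8.02, 8.16 and 8.59. The difference between SAG and cyclopamine did not pass with all arrays (-0.72 ± 0.37, limma adjusted p = 0.279). Without cyclopamine replicate 2 Bmp6 was lower with SAG than with cyclopamine (-1.24, limma adjusted p = 0.0105).

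Bmp3, a BMP family member that opposes BMP signalling, had 8.98, 10.08, 10.70 and 11.04 with SAG, 9.41, 9.22 and 8.84 with cyclopamine, and 9.12, 9.74 and 8.42 with vehicle. SAG replicate 1 lay among the vehicle arrays and the other SAG arrays above them. Against vehicle Bmp3 was at 1.10 ± 0.45 (limma adjusted p = 0.393), and at 1.51 (0.106) without that array. It did not pass against cyclopamine (1.04 ± 0.45, limma adjusted p = 0.186) and passed without SAG replicate 1 (1.45, limma adjusted p = 0.0247). Gdf11, a ligand of axial patterning, did not pass in any comparison with all arrays. Without cyclopamine replicate 1 it was lower with SAG than with cyclopamine (-1.01, limma adjusted p = 0.0199).

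**Figure D2:**
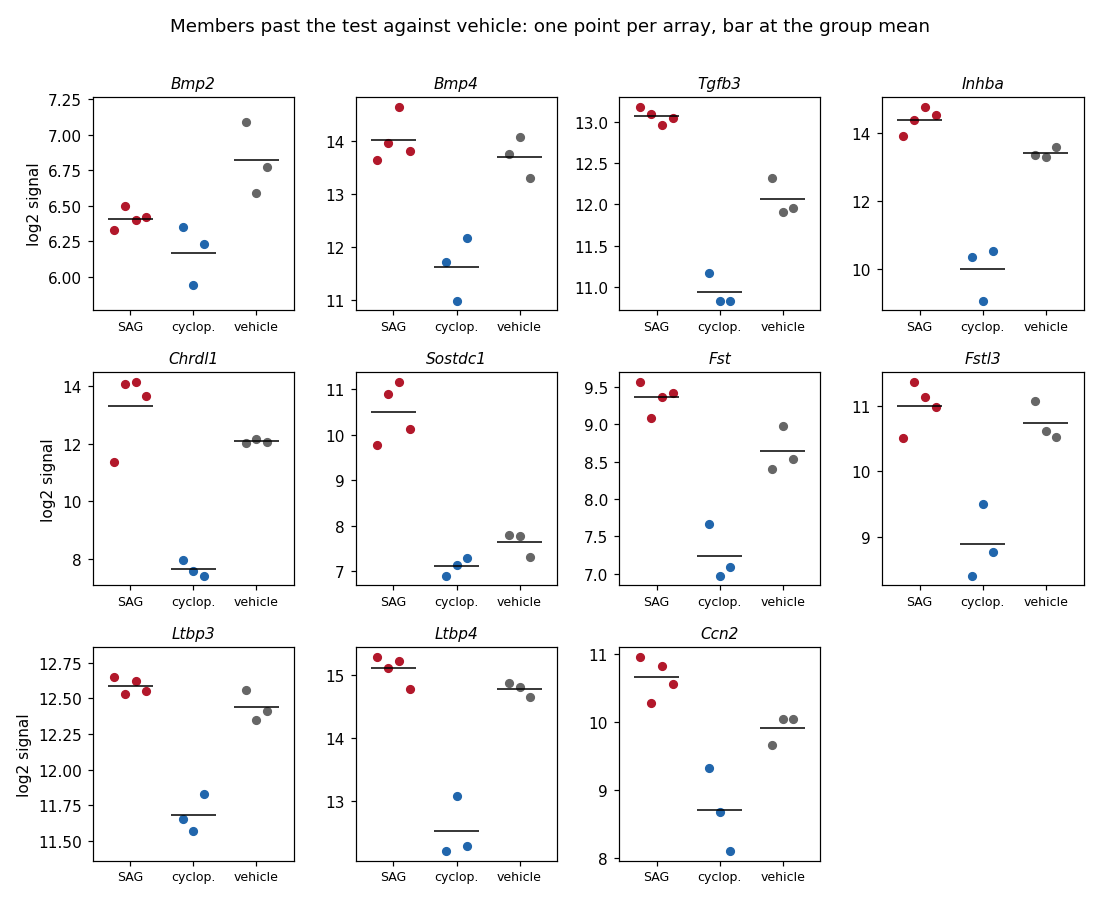
Log2 signal (vertical axis, a separate scale for each gene) of the 11 pathway genes that passed the test against vehicle, with 1 point per array and a bar at the group mean. The cyclopamine arrays lie below the vehicle arrays for every gene shown. SAG replicate 1, the leftmost red point, is the lowest of the SAG arrays for Chrdl1 (11.37) and Sostdc1 (9.78).

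The largest fall with cyclopamine among the 52 genes was that of Chrdl1, a chordin-like secreted antagonist that binds BMPs. It had 11.37, 14.07, 14.16 and 13.65 with SAG, 7.97, 7.58 and 7.41 with cyclopamine, and 12.02, 12.18 and 12.06 with vehicle. The cyclopamine arrays lay below all others, 3 SAG arrays lay above the vehicle arrays, and SAG replicate 1 lay below them. Chrdl1 fell 21.6-fold with cyclopamine (-4.43 ± 0.59, limma adjusted p = 0.00286). It was 50.5-fold higher with SAG than with cyclopamine (limma adjusted p = 0.000115, and a log2 difference of 5.37 to 6.30 with single arrays left out). The SAG difference from vehicle, 1.23 ± 0.55, missed the threshold with all arrays (limma adjusted p = 0.458), and passed without SAG replicate 1 as given above.

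Sostdc1, whose secreted product blocks BMPs and modulates Wnt signalling, had 9.78, 10.89, 11.16 and 10.13 with SAG, 6.90, 7.14 and 7.29 with cyclopamine, and 7.80, 7.78 and 7.31 with vehicle. It rose 7.26-fold with SAG (2.86 ± 0.30, limma adjusted p = 0.00298), and the lowest SAG array stood well above the highest vehicle array. With cyclopamine every array lay below the vehicle arrays, the closest pair being 7.29 and 7.31, and the difference did not pass (-0.52 ± 0.32, limma adjusted p = 0.423).

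The follistatin genes encode secreted proteins that bind activin and some BMPs. Fst, follistatin, had 9.57, 9.09, 9.37 and 9.42 with SAG, 7.66, 6.97 and 7.09 with cyclopamine, and 8.40, 8.97 and 8.54 with vehicle. Its groups did not overlap: Fst fell 2.64-fold with cyclopamine (-1.40 ± 0.22, limma adjusted p = 0.00554) and was at 0.73 ± 0.20 with SAG against vehicle (limma adjusted p = 0.175). Fstl3, a follistatin-like inhibitor of activin, had 10.51, 11.37, 11.14 and 10.98 with SAG, 8.40, 9.50 and 8.76 with cyclopamine, and 11.07, 10.61 and 10.53 with vehicle. It fell 3.60-fold with cyclopamine (-1.85 ± 0.29, limma adjusted p = 0.00619), while the SAG and vehicle arrays overlapped (0.26 ± 0.27). Fstl1, a more distant secreted relative, had 13.77, 13.82, 13.75 and 14.01 with SAG, 13.21, 13.20 and 13.10 with cyclopamine, and 13.57, 13.48 and 13.84 with vehicle, with the cyclopamine arrays below all others. It was higher with SAG than with cyclopamine (0.67 ± 0.13, limma adjusted p = 0.00685) and at -0.46 ± 0.14 with cyclopamine against vehicle (limma adjusted p = 0.0908).

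Chrd, chordin, a BMP antagonist, had 9.85, 10.48, 9.85 and 9.82 with SAG, 9.10, 9.50 and 8.75 with cyclopamine, and 9.99, 9.93 and 9.95 with vehicle. The cyclopamine arrays lay below all others, but the difference from vehicle was just outside the threshold (-0.84 ± 0.22, limma adjusted p = 0.0548) and passed without SAG replicate 2 (limma adjusted p = 0.0340) or cyclopamine replicate 2 (0.0197). Chrd was higher with SAG than with cyclopamine (0.88 ± 0.21, limma adjusted p = 0.0178), which ended without cyclopamine replicate 1 (0.0569) or 3 (0.0737). Bambi, a pseudoreceptor that lacks the kinase domain, had 11.61, 11.20, 11.43 and 11.57 with SAG, 10.49, 11.03 and 10.48 with cyclopamine, and 11.35, 10.85 and 11.09 with vehicle. It was higher with SAG than with cyclopamine (0.78 ± 0.18, limma adjusted p = 0.0176), and the vehicle arrays overlapped with both. That call ended without cyclopamine replicate 1 (0.0735) or 3 (0.0731).

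A pair of antagonists was lower with SAG than with cyclopamine. Nog, noggin, which binds BMPs, had 6.52, 6.71, 6.86 and 6.81 with SAG, 7.33, 7.68 and 8.34 with cyclopamine, and 7.67, 7.39 and 7.00 with vehicle (SAG against cyclopamine -1.06 ± 0.23, limma adjusted p = 0.0138). The SAG arrays lay below all others. Twsg1, twisted gastrulation, which binds BMPs together with chordin, had 13.43, 13.55, 13.59 and 13.61 with SAG, 14.05, 14.22 and 13.89 with cyclopamine, and 13.69, 13.80 and 13.81 with vehicle. The groups of Twsg1 did not overlap, and the difference between the compounds was small (-0.51 ± 0.12, limma adjusted p = 0.0198, and 0.0591 or 0.0587 without cyclopamine replicate 1 or 2).

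Grem1, gremlin, another BMP antagonist, varied widely within groups. It had 7.72, 5.81, 5.43 and 5.62 with SAG, 5.52, 8.69 and 5.26 with cyclopamine, and 5.06, 4.19 and 5.55 with vehicle. SAG replicate 1 and cyclopamine replicate 2 were far above every other array. The differences from vehicle, 1.21 ± 0.80 with SAG and 1.56 ± 0.86 with cyclopamine, did not pass (limma adjusted p = 0.651 and 0.366). Without cyclopamine replicate 2 the cyclopamine difference was 0.46, and without SAG replicate 1 the SAG difference was 0.69. Chrdl2, another chordin-like gene, was the one member whose mean over all arrays was under the lower quartile of 5.19, and did not pass in any comparison.

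Of the 4 latent TGF-beta binding protein genes, 2 fell with cyclopamine. Ltbp4 had 15.28, 15.11, 15.21 and 14.78 with SAG, 12.22, 13.08 and 12.30 with cyclopamine, and 14.86, 14.81 and 14.65 with vehicle. Its fall with cyclopamine was 4.73-fold (-2.24 ± 0.22, limma adjusted p = 0.000522), with all 3 cyclopamine arrays below the others and cyclopamine replicate 2 the highest of them. Ltbp3 had 12.65, 12.53, 12.62 and 12.55 with SAG, 11.65, 11.57 and 11.83 with cyclopamine, and 12.56, 12.35 and 12.41 with vehicle, and fell 1.70-fold with cyclopamine (-0.76 ± 0.13, limma adjusted p = 0.00728). With SAG neither passed against vehicle (0.32 ± 0.21 and 0.14 ± 0.12).

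Ltbp1 and Ltbp2, of the same family, did not pass in any comparison. Ltbp1 had 9.55, 10.09, 9.78 and 10.26 with SAG, 10.12, 9.51 and 10.11 with cyclopamine, and 10.45, 11.12 and 10.30 with vehicle. All 7 treated arrays of Ltbp1 lay below the vehicle arrays (-0.71 ± 0.25 with SAG and -0.71 ± 0.26 with cyclopamine, limma adjusted p = 0.300 and 0.168). Ltbp2 had 6.63, 6.44, 5.84 and 5.41 with SAG, 4.86, 5.69 and 4.49 with cyclopamine, and 5.44, 6.15 and 6.98 with vehicle, with overlap between all groups and a cyclopamine mean of 5.02, under the lower quartile of 5.19. Its differences were -1.18 ± 0.44 for cyclopamine against vehicle (limma adjusted p = 0.170) and 1.06 ± 0.41 for SAG against cyclopamine (limma adjusted p = 0.137).

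Promoter windows of members that moved with the treatments are shown because the treatments act on GLI factors, which bind the consensus TGGGTGGTC. The windows run from 250 bases before to 50 bases after the annotated start and come from RefSeq, build GRCm38.p6, which held at least 1 window for 36 of the 52 members. On both strands of 44 member windows the consensus was found in 0, against 0.253% of all 32851 windows. The shorter string TGGGTGG, which is part of that consensus, was found in 3 member windows (Bmp5, Grem1 and Tgfb1), against 9.3% of all windows. TATAAA, the core of the TATA box, was found in 5 members, Inhba and Fstl3 among them, against 13.6% of all windows. Capitals mark TGGGTGG in Bmp5 and TATAAA, or its reverse complement, in Inhba and Fstl3; Bmp4 held none of the 3 strings. A match describes these letters and not a site in use, and no match says only that these letters are not in this window.
Inhba, chr13:16011601-16011900, plus strand: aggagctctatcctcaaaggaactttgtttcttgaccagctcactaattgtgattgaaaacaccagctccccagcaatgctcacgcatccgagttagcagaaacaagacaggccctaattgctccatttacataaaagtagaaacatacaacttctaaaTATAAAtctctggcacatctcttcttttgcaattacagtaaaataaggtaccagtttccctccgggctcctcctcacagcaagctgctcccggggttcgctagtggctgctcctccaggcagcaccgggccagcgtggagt
Bmp4, chr14:46390620-46390919, minus strand: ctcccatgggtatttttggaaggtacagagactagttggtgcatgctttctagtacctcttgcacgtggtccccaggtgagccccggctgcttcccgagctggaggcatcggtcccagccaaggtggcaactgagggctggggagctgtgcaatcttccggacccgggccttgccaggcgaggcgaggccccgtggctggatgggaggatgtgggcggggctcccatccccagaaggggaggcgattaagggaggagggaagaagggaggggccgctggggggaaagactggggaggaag
Bmp5, chr9:75775115-75775414, plus strand: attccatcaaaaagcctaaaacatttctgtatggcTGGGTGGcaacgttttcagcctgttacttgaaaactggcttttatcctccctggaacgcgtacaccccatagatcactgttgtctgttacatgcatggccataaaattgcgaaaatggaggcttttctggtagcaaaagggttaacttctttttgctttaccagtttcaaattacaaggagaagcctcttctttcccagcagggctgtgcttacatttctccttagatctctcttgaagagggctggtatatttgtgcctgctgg
Fstl3, chr10:79777024-79777323, plus strand: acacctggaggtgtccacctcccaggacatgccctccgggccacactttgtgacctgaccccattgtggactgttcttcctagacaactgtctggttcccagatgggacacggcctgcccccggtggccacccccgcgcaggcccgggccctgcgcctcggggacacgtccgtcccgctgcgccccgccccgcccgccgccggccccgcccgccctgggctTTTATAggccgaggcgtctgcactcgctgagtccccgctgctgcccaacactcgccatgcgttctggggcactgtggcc

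Receptor genes, whose products bind the ligands at the cell surface, did not pass against vehicle with either compound. With SAG their differences from vehicle ranged from -0.82 to 0.74 and with cyclopamine from -0.25 to 0.79. Bmpr2, the BMP type II receptor, had 14.47, 14.47, 14.48 and 14.60 with SAG, 14.20, 14.45 and 13.76 with cyclopamine, and 14.39, 14.32 and 14.45 with vehicle. It did not pass between the compounds (0.37 ± 0.16, limma adjusted p = 0.178) and did so without cyclopamine replicate 2 (0.53, limma adjusted p = 0.0456). Bmpr1a, a BMP type I receptor, was at 0.10 ± 0.13 with SAG and -0.14 ± 0.14 with cyclopamine, and Tgfbr2, the TGF-beta type II receptor, at 0.03 ± 0.26 and 0.11 ± 0.27. Acvr2a and Acvr2b, the activin type II receptors, did not pass in any comparison, also with any single array left out. Nor did Tgfbr3, the co-receptor betaglycan, which had 13.46, 12.94, 13.17 and 12.96 with SAG, 13.60, 15.04 and 13.56 with cyclopamine, and 13.24, 13.38 and 13.60 with vehicle. Cyclopamine replicate 2 was its highest array, and SAG against cyclopamine was at -0.93 ± 0.32 (limma adjusted p = 0.0927), or -0.45 (0.152) without that array.

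In the comparison of the compounds 3 receptors passed. Acvr1, a type I receptor for BMPs, had 9.28, 8.95, 9.43 and 9.46 with SAG, 8.50, 8.70 and 7.91 with cyclopamine, and 8.26, 8.62 and 8.72 with vehicle. SAG arrays lay above all others, by 0.91 ± 0.21 over cyclopamine (limma adjusted p = 0.0175, and 0.0625 without cyclopamine replicate 3) and by 0.74 ± 0.21 over vehicle (limma adjusted p = 0.178). Acvr1b, the activin type I receptor, had 10.14, 9.83, 9.84 and 10.01 with SAG, 10.27, 10.66 and 10.68 with cyclopamine, and 10.07, 10.08 and 9.88 with vehicle. It was lower with SAG than with cyclopamine (-0.58 ± 0.14, limma adjusted p = 0.0253), a call that ended without SAG replicate 2 or 3 or cyclopamine replicate 2 or 3 (limma adjusted p 0.0690 to 0.0962), and at 0.52 ± 0.15 with cyclopamine against vehicle (limma adjusted p = 0.0850).

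Bmpr1b, another BMP type I receptor, had 8.53, 9.62, 9.29 and 9.33 with SAG, 11.23, 9.58 and 11.59 with cyclopamine, and 10.01, 10.42 and 9.61 with vehicle. Cyclopamine replicates 1 and 3 stood above all others, while replicate 2 lay among the SAG arrays. It was lower with SAG than with cyclopamine (-1.61 ± 0.43, limma adjusted p = 0.0363), which was lost on leaving out cyclopamine replicate 1 or 3, SAG replicate 1, 3 or 4, or vehicle replicate 1 (limma adjusted p 0.0557 to 0.139). With all arrays Bmpr1b did not pass with cyclopamine against vehicle (0.79 ± 0.46, limma adjusted p = 0.401). Without cyclopamine replicate 2 the SAG difference from cyclopamine was -2.22 (limma adjusted p = 0.000910), and Bmpr1b rose with cyclopamine against vehicle (1.40, limma adjusted p = 0.0298). Tgfbr1, the TGF-beta type I receptor, had 12.01, 12.11, 11.83 and 12.36 with SAG, 12.64, 12.32 and 12.71 with cyclopamine, and 12.19, 12.37 and 12.43 with vehicle. It did not pass (-0.48 ± 0.16 for SAG against cyclopamine, limma adjusted p = 0.0811), but passed without SAG replicate 4 (0.0447) or cyclopamine replicate 2 (0.0404).

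**Figure D3:**
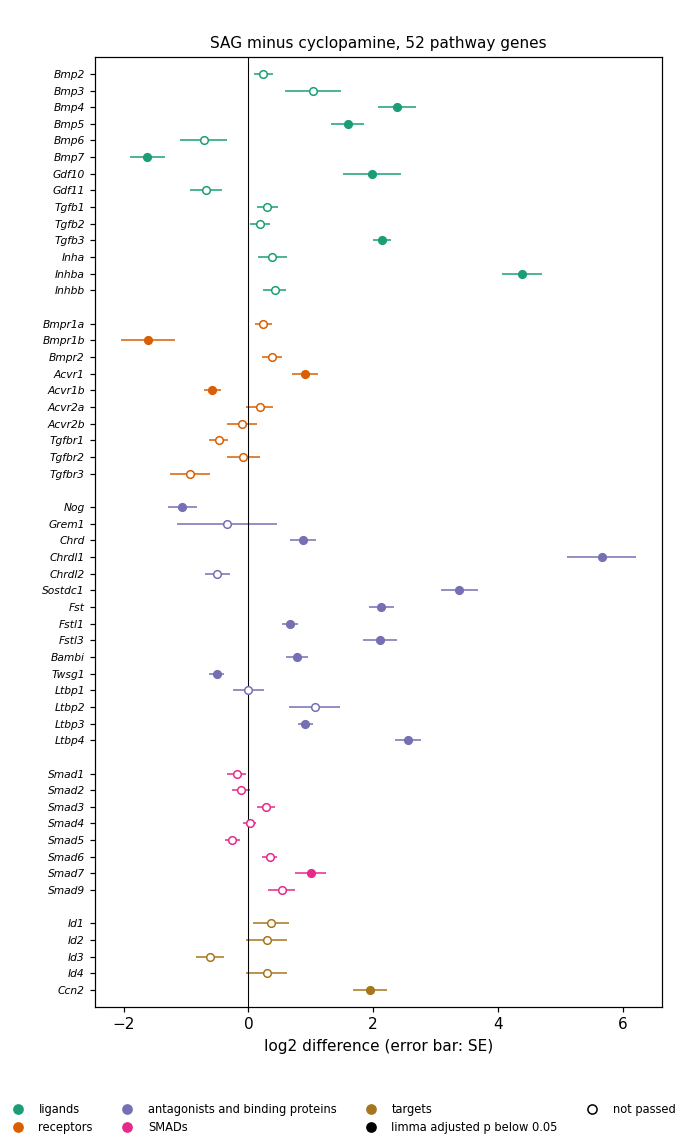
Log2 difference between SAG and cyclopamine (horizontal axis, SAG minus cyclopamine, error bars are moderated standard errors) for the 52 pathway genes, coloured by class; filled points passed the test. Of the 22 filled points, 17 lie right of 0, up to 5.66 for Chrdl1, and 5 lie left of it, down to -1.62 for Bmp7.

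Among the SMADs, the common mediator Smad4 had 13.42, 13.41, 13.43 and 13.42 with SAG, 13.44, 13.31 and 13.46 with cyclopamine, and 13.40, 13.45 and 13.46 with vehicle. Its differences from vehicle were -0.02 ± 0.10 with SAG and -0.03 ± 0.11 with cyclopamine. The receptor-regulated Smad2 (-0.02 ± 0.15 and 0.10 ± 0.16), Smad3 (0.31 ± 0.14 and 0.03 ± 0.15) and Smad5 (-0.08 ± 0.12 and 0.18 ± 0.13) did not pass either. Smad1 had 13.47, 13.07, 13.14 and 13.09 with SAG, 13.59, 13.14 and 13.40 with cyclopamine, and 13.60, 13.80 and 13.83 with vehicle. Every treated array lay below the vehicle arrays, and neither difference passed (limma adjusted p = 0.169 and 0.252). Smad9 was at -0.77 ± 0.24 with cyclopamine (limma adjusted p = 0.0984) and passed without vehicle replicate 3 (limma adjusted p = 0.0495).

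The inhibitory SMADs are themselves induced by the pathway. Smad7 had 7.75, 8.22, 8.65 and 8.51 with SAG, 7.61, 7.51 and 6.72 with cyclopamine, and 7.97, 8.12 and 7.90 with vehicle. All cyclopamine arrays lay below the others. Smad7 was higher with SAG than with cyclopamine (1.00 ± 0.25, limma adjusted p = 0.0254), which ended without SAG replicate 2, 3 or 4 or cyclopamine replicate 3 (limma adjusted p 0.0541 to 0.0907), and it was at -0.71 ± 0.27 with cyclopamine against vehicle (limma adjusted p = 0.174). Smad6 had 9.22, 9.20, 9.27 and 9.18 with SAG, 8.69, 8.97 and 8.97 with cyclopamine, and 9.10, 9.12 and 9.14 with vehicle. Its groups did not overlap, but the differences were small (0.10 ± 0.12 and -0.24 ± 0.12 against vehicle) and did not pass. SAG against cyclopamine, at 0.34 ± 0.12, did not pass either (limma adjusted p = 0.0891).

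Of the targets, Ccn2, a matrix-associated protein induced by TGF-beta and by mechanical signals, had 10.96, 10.28, 10.83 and 10.56 with SAG, 9.33, 8.68 and 8.11 with cyclopamine, and 9.67, 10.05 and 10.04 with vehicle. The groups did not overlap. Ccn2 fell 2.32-fold with cyclopamine (-1.21 ± 0.28, limma adjusted p = 0.0361), and the call was lost on leaving out SAG replicate 3 or 4, cyclopamine replicate 2 or 3, or any vehicle array (limma adjusted p 0.0542 to 0.117). It was 3.86-fold higher with SAG than with cyclopamine (limma adjusted p = 0.000835) and at 0.74 ± 0.27 with SAG against vehicle (limma adjusted p = 0.321).

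The Id genes encode helix-loop-helix inhibitors of differentiation that BMP signalling induces in many cells, and none of the 4 passed in any comparison, also with any single array left out. Their means lay below vehicle with both compounds. Id1 had 12.24, 12.30, 11.40 and 12.37 with SAG, 12.08, 11.24 and 11.83 with cyclopamine, and 12.34, 13.21 and 12.61 with vehicle, and the group means were 12.08, 11.72 and 12.72 in the same order (limma adjusted p = 0.472 for SAG and 0.103 for cyclopamine against vehicle). The cyclopamine arrays of Id1 lay below the vehicle arrays, and the SAG arrays overlapped with them. Id2 was at -0.66 ± 0.33 with SAG and -0.95 ± 0.35 with cyclopamine, Id3 at -0.65 ± 0.22 and -0.03 ± 0.23, and Id4 at -0.20 ± 0.33 and -0.49 ± 0.35. For SAG against cyclopamine Id3 was at -0.62 ± 0.22 (limma adjusted p = 0.103), with every SAG array below the cyclopamine arrays.

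**Figure D4:**
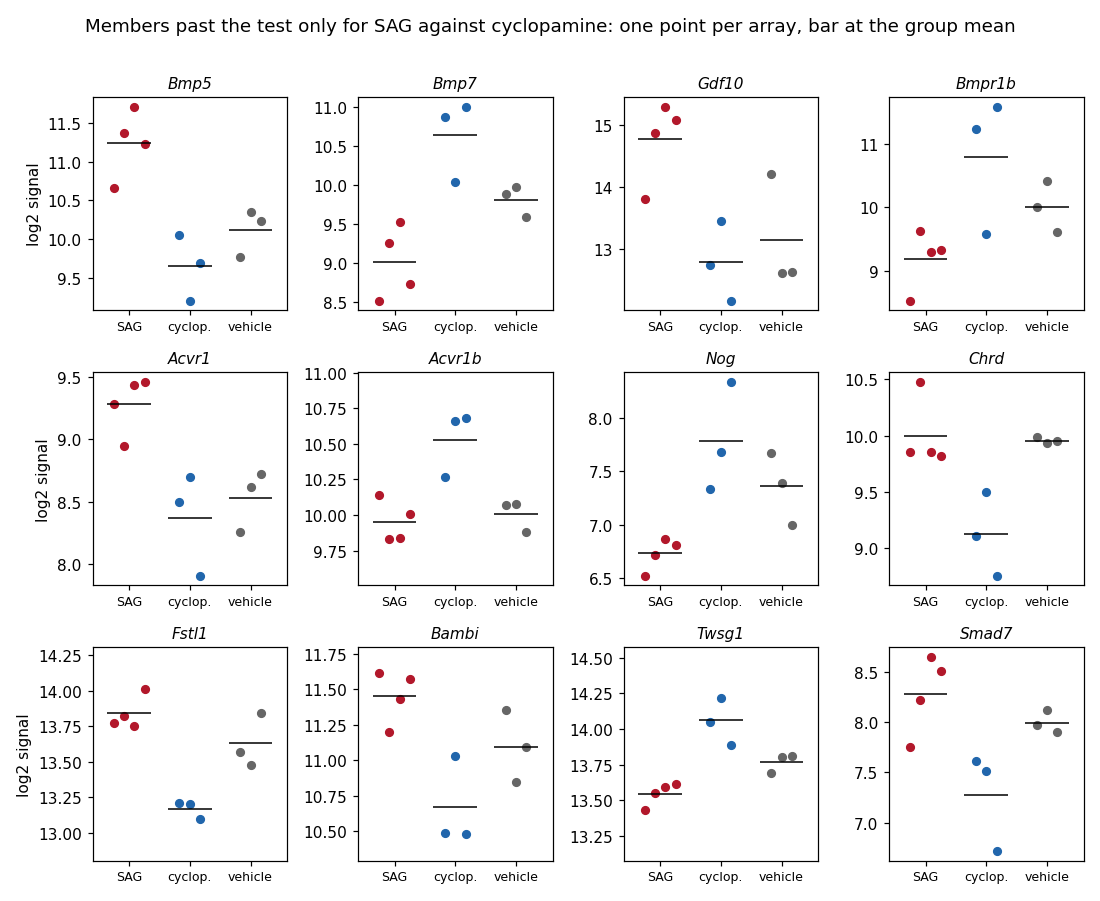
Log2 signal (vertical axis, a separate scale for each gene) of the 12 pathway genes that passed for SAG against cyclopamine and not against vehicle, with 1 point per array and a bar at the group mean. Cyclopamine replicate 2, the middle blue point, is the low cyclopamine array for Bmp7 (10.03) and Bmpr1b (9.58), and SAG replicate 1, the leftmost red point, the low SAG array for Gdf10 (13.80).

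In a wider list of 63 measured pathway genes (68 listed), 1 rose and 1 fell with SAG, 1 rose and 3 fell with cyclopamine, and 9 were higher and 2 lower with SAG than with cyclopamine. Of the 63, 1.59% rose and 1.59% fell with SAG (0.450% and 0.279% of all probe sets), 1.59% rose and 4.76% fell with cyclopamine (2.17% and 2.95%), and 14.3% were higher and 3.17% lower between the compounds (5.42% and 5.92%). The difference in frequency between this list and the 52 members was not tested. Rgmb, a BMP co-receptor, had 10.43, 10.62, 10.44 and 10.32 with SAG, 9.74, 9.73 and 9.72 with cyclopamine, and 9.64, 9.77 and 9.71 with vehicle. It rose with SAG (0.75 ± 0.11, limma adjusted p = 0.0174) and was at 0.02 ± 0.12 with cyclopamine. The rise was lost on leaving out SAG replicate 3 or any vehicle array (limma adjusted p 0.0588 to 0.0846).

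Tll1, a tolloid-like protease that cleaves chordin, had 7.98, 8.10, 7.66 and 7.34 with SAG, 9.35, 8.54 and 10.22 with cyclopamine, and 9.23, 10.03 and 9.98 with vehicle. It fell 3.94-fold with SAG (limma adjusted p = 0.0360), which held without cyclopamine replicate 2 or 3 and ended without any 1 of the other 8 arrays (limma adjusted p 0.0532 to 0.200). With cyclopamine, Pmepa1, a feedback inhibitor induced by TGF-beta (-1.23 ± 0.25, limma adjusted p = 0.0210), Emilin1, a matrix protein that limits the processing of the TGF-beta precursor (-0.97 ± 0.22, limma adjusted p = 0.0312), and Fstl4 (-1.81 ± 0.43, limma adjusted p = 0.0370) fell. The Pmepa1 and Emilin1 calls were lost on leaving out cyclopamine replicate 1 or 3 or any vehicle array (limma adjusted p 0.0504 to 0.0744 for Pmepa1 and at least 0.0728 for Emilin1), and the Fstl4 call on leaving out SAG replicate 3, cyclopamine replicate 2 or 3, or any vehicle array (limma adjusted p 0.0578 to 0.135). Tgfbi, a matrix protein induced by TGF-beta, rose with cyclopamine (1.02 ± 0.21, limma adjusted p = 0.0200), and this was lost on leaving out cyclopamine replicate 1 or vehicle replicate 1 or 2 (limma adjusted p 0.0657 to 0.0753). The SAG arrays of Tgfbi also lay above all vehicle arrays, but that difference did not pass (0.70 ± 0.19, limma adjusted p = 0.170).

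For SAG against cyclopamine, Skil, a nuclear inhibitor of SMADs that TGF-beta induces (0.99 ± 0.15, limma adjusted p = 0.00201), Itgb8, an integrin subunit that activates latent TGF-beta (1.39 ± 0.29, limma adjusted p = 0.0102), Pmepa1, Emilin1 and Rgmb were higher with any single array left out. Tgif1, a SMAD corepressor (-1.20 ± 0.25, limma adjusted p = 0.00982), and Tll1 (-1.60 ± 0.36, limma adjusted p = 0.0147) were lower with any single array left out. Acvrl1 (0.59 ± 0.15) and Eng (1.02 ± 0.29), receptors of endothelial cells, Dcn, decorin (0.52 ± 0.14), and Fstl4 (1.47 ± 0.40) were higher as well. The Acvrl1 call ended without any 1 of 4 of the 10 arrays (limma adjusted p 0.0524 to 0.0988), and that of Fstl4 without any 1 of 5 (0.0537 to 0.128). The Eng and Dcn calls ended without any 1 of 9 of the 10 arrays (0.0670 to 0.173 and 0.0529 to 0.119). Eng was near the threshold with all arrays (limma adjusted p = 0.0484), and its SAG and cyclopamine arrays overlapped.

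Markers of the cell types an explant can hold moved with the same treatments. Over all probe sets 2.17% rose and 2.95% fell with cyclopamine, and 0.450% rose and 0.279% fell with SAG, against vehicle. Of 12 measured duct epithelium genes, 6 rose and 0 fell with cyclopamine, and 0 rose and 2 fell with SAG against vehicle. With SAG all 12 differences were negative. An unadjusted limma p below 0.05 was found for 10 of the 12 with SAG, against 10.8% of all probe sets. Pax2, a transcription factor that defines the nephric duct, had 8.26, 8.50, 8.30 and 8.00 with SAG, 12.49, 14.61 and 13.33 with cyclopamine, and 9.79, 10.68 and 9.53 with vehicle. Pax2 had the largest rise of the list, and 10 of the 12 genes had positive differences with cyclopamine. The other 2, Lhx1 (-0.90 ± 0.27) and Ret (-1.55 ± 0.75), did not pass (limma adjusted p = 0.0845 and 0.302), and every cyclopamine array of Lhx1 lay below the vehicle arrays. The log2 of the summed duct epithelium signal was 14.21 to 15.06 with SAG, 17.04 to 17.70 with cyclopamine and 15.44 to 16.29 with vehicle. Of 9 mesenchyme and fibroblast genes, 5 fell with cyclopamine and 0 changed with SAG against vehicle (unadjusted p below 0.05 in 3). The summed signal was 19.40 to 19.62 with SAG, 18.59 to 18.69 with cyclopamine and 19.25 to 19.35 with vehicle. Dcn, the largest part of this sum, was also counted in the wider pathway list, so these lists are not separate.

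Smooth muscle genes fell in 8 of 10 cases with cyclopamine and in 0 with SAG (unadjusted p below 0.05 in 6), with summed signals of 17.34 to 17.65 with SAG, 15.26 to 15.50 with cyclopamine and 17.52 to 17.75 with vehicle. In the endothelium list 1 of 8 genes fell with cyclopamine (unadjusted p below 0.05 in 3), and all 8 differences were negative. Its summed signal was 14.90 to 15.31 with SAG, 12.73 to 13.91 with cyclopamine and 13.77 to 14.66 with vehicle. Cyclopamine replicate 2 had the highest of these cyclopamine sums and the lowest mean log2 signal (7.87). In the macrophage list 1 of 7 genes, Cd14, rose with cyclopamine, and 3 differences were negative. The summed signal was 14.23 to 16.17 with SAG, 15.91 to 16.91 with cyclopamine and 14.62 to 15.38 with vehicle. Lyz2, the largest part of each sum, did not pass (1.70 ± 0.49, limma adjusted p = 0.0765). Mean log2 signals of this list overlapped between cyclopamine (11.22 to 12.27) and vehicle (10.74 to 11.28). Of 6 genes of neurons and glia 0 passed by limma (unadjusted p below 0.05 in 0), with summed signals of 9.22 to 10.81 with SAG, 8.81 to 11.24 with cyclopamine and 9.76 to 11.47 with vehicle. The part of these marker changes in the differences of the pathway genes was not tested.

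**Figure D5:**
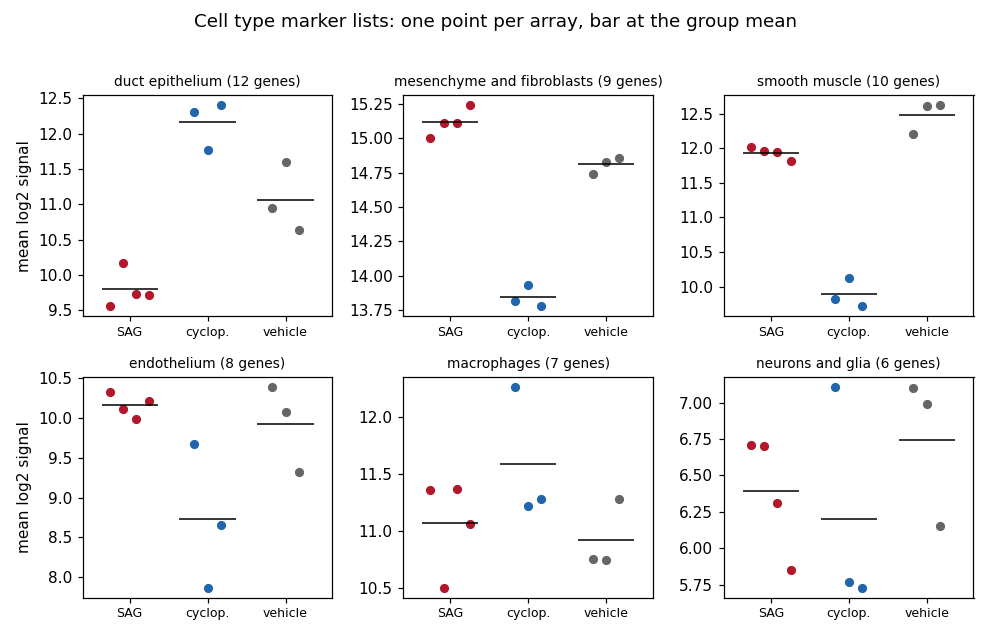
Mean log2 signal of each cell type marker list (vertical axis, a separate scale for each list), with 1 point per array and a bar at the group mean. Duct epithelium means lie at 11.76 to 12.40 with cyclopamine, above vehicle (10.63 to 11.60) and SAG (9.56 to 10.17), and smooth muscle means at 9.72 to 10.13 with cyclopamine, below SAG (11.82 to 12.01) and vehicle (12.20 to 12.62).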

How the data were processed

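RNA from 10 mouse Wolffian duct cultures was measured on Affymetrix arrays, with 100 ng of total RNA labelled by the GeneChip WT Plus protocol, per the labels' protocols. The authors deposited log2 signals, 1 per probe set and array; values ran from 2.95 to 18.75, which is why base 2 is assumed, and array quartiles were nearly equal as deposited. Summarization, normalization, software and build were not given in the sources used here. Precision is limited by how many arrays each group has. Genes were named from the platform's annotation. limma 3.58.1 in R 4.3.3 fitted a mean per group to all 22206 probe sets and 10 arrays (7 residual and 3.70 prior degrees of freedom, eBayes), with two-sided tests, p-values adjusted after Benjamini and Hochberg across the whole array, a threshold of 0.05 and no filter; errors are moderated standard errors. The fit was tested on simulated data.

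The members and lists were chosen with earlier results of these data known. Members that passed a comparison are given array by array; the 4 nearest to the threshold in each comparison and those with a log2 difference of at least 1 are named with values; other pathway genes are named where they passed. Of 68 other pathway genes and 57 markers listed, 63 and 52 were analysed. Nothing used here says which embryos or cultures the arrays came from, so p-values measure the spread between these arrays.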

Additional observations from a re-analysis of the deposited data

Results flagged for a closer look

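In the SAG group, the only group with 4 arrays, 1 array stood far from the other 3 for 6 of the 52 pathway genes, by the ratio of its gap to the nearest array over the whole range; chance flags about 1 in 20 groups. SAG replicate 1 was high for Inha (10.19, against 9.18 to 9.35 on the other SAG arrays) and Grem1 (7.72, against 5.43 to 5.81). SAG replicate 2 was high for Chrd (10.48, against 9.82 to 9.85). SAG replicate 3 was low for Id1 (11.40, against 12.24 to 12.37). SAG replicate 4 was high for Inhbb (8.29, against 7.69 to 7.78) and Bmpr2 (14.60, against 14.47 to 14.48).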

How the results depend on the processing

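Differences of members were recomputed where they passed, were at least 1 in log2 size, lay nearest to the threshold or passed without 1 array. Those of other pathway genes were recomputed where they passed. None of these changed sign, and small differences, such as those of Smad4, were not among them. The receptor median with cyclopamine did change sign, as given above. Against 10 genes lower with cyclopamine than with vehicle, the count was 8 to 10 with any single array left out, 11 without the dimmest 25% of probe sets, 9 with arrays centred on their median and 8 when the fit held no other group. Against 2 higher with SAG than with vehicle it was 1 to 4 with single arrays left out and 5 without both SAG replicate 1 and cyclopamine replicate 2, a choice made after seeing the data. Against 0 higher with cyclopamine than with vehicle it was 0 to 3 with single arrays left out, 3 without both those arrays (Bmp6, Bmp7 and Bmpr1b) and 1 at a threshold of 0.1 (Acvr1b). That threshold also gave 13 lower with cyclopamine than with vehicle (Chrd, Fstl1 and Smad9 added). Between the compounds it gave 18 higher (Smad6 added) and 7 lower with SAG (Tgfbr1 and Tgfbr3 added). Against 17 higher and 5 lower with SAG than with cyclopamine, the counts were 12 to 18 and 3 to 5 with single arrays left out, and 16 and 3 with only the 2 groups compared. Without both arrays the counts were 9 lower with cyclopamine than with vehicle, and 18 higher and 4 lower with SAG than with cyclopamine. The labels name no pairing, so the numbers were not taken to pair samples. Same-numbered arrays deviated from their group means with correlations of -0.19 to 0.24 over 9 pairs, and differently numbered arrays of different groups with -0.22 to 0.23. With the replicate number as a block the counts were 1 higher with SAG and 8 lower with cyclopamine against vehicle. For SAG against cyclopamine they were 12 higher and 1 lower. The member calls that ended with the block were Tgfb3 for SAG against vehicle (limma adjusted p = 0.0558), Bmp2 and Ccn2 for cyclopamine against vehicle (0.0989 and 0.0892), and Gdf10, Acvr1, Fstl1, Bambi, Smad7, Bmpr1b, Acvr1b, Nog and Twsg1 between the compounds (0.0547 for Fstl1, 0.0640 for Nog, 0.0733 for Twsg1 and up to 0.125 for Bmpr1b). Among the other pathway genes, the block ended every call against vehicle (limma adjusted p from 0.0504 for Tgfbi to 0.181 for Tll1). Between the compounds it ended those of Tgif1 (0.0643), Tll1 (0.0726), Acvrl1 (0.0780), Fstl4 (0.0914), Dcn (0.125) and Eng (0.137). Quantile normalization again and an intensity-dependent prior variance left all 6 counts at their values. The prior variance did exchange Bmp2 for Fstl1 among the genes lower with cyclopamine than with vehicle. Averaging the probe sets of the same gene also left the counts unchanged, but it could not test the members' differences. Each member has 1 probe set, so its log2 differences stay the same by construction. Leaving out arrays or groups, or adding a block, lowers the degrees of freedom; the cause of the other changes was not tested.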
